A study of Homo sapiens with 6 samples.

Results

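Serpins are a superfamily of proteins that share a single fold, and most members inhibit serine or cysteine proteases by presenting an exposed loop as bait and trapping the protease that cuts it. The secreted members control clotting, fibrinolysis, complement and inflammation, the clade B members stay inside cells and guard against misplaced granule and lysosomal proteases, and a few members have lost the inhibitory function and work as chaperones, hormone carriers or signalling proteins. The 34 serpin genes described here were taken by symbol, SERPIN followed by a clade letter from A to I and a number, from the 26255 genes listed. Of these, 16 had at least 0.1 FPKM (fragment counts scaled by transcript length and library size) in at least 3 of the 6 libraries and were tested, and 18 were not.

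The RNA-seq libraries came from NCI-H1299, an established human lung cancer cell line. All cells were stable lines that carried a pSilencer 2.1-U6 vector, which expresses a short hairpin RNA from the U6 promoter. The sample labels name its neo version and the methods of the study its hygro version, so the resistance gene is uncertain. The vector held a control hairpin in the 3 shControl libraries and a hairpin against Ephexin1 in the 3 shEphexin1 libraries. The shEphexin1 library names begin with the same clone-like code, so they may be repeat samples of 1 clone. Nothing in the labels says that libraries of a group came from separate cultures, so the p-values measure the spread between these libraries, which may be technical.

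NGEF, the gene that encodes Ephexin1, measured 13.3, 11.7 and 16.4 FPKM in the shControl libraries against 9.81, 8.25 and 10.5 FPKM in the shEphexin1 libraries, so the groups did not overlap. Its log2 fold change was -0.53 (SE 0.163), which did not pass the threshold (limma adjusted p = 0.103). The study checked its stable knockdown clones by western blot, at the level of the Ephexin1 protein. Between 16958 and 17509 genes were above 0 FPKM per library, and read numbers are unknown. The summed FPKM of a library ran from 561335 to 651441 in shControl and from 516079 to 587222 in shEphexin1. The replicate 2 libraries of both groups stood apart from replicates 1 and 3, and results that rest on them are given below with and without them. The mesenchymal marker VIM was at 1979 FPKM or more in every library, whereas CDH1 and the lung marker NKX2-1 were listed at 0 in all 6. The summed level of the 6 epithelial markers was 73.9 to 120.5 FPKM in shControl and 39.8 to 59.1 FPKM in shEphexin1. KRT18 made up most of this sum, and no marker of the list was called. The part of these markers in the serpin differences was not tested. The liver, blood, endothelial and fibroblast markers, each list summed on its own, came to at most 1.11 FPKM in any library, with TTR, PTPRC, CD3E and LUM listed at 0 in all 6.

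The level of the 16 tested serpins spanned 3 ranges. SERPINB6 and SERPINH1 were above 10 FPKM on average, 6 serpins lay between 1 and 10 FPKM and 8 lay below 1 FPKM. The remaining 18 were under the filter, 13 of them listed at 0 in every library.

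**Figure D1:**
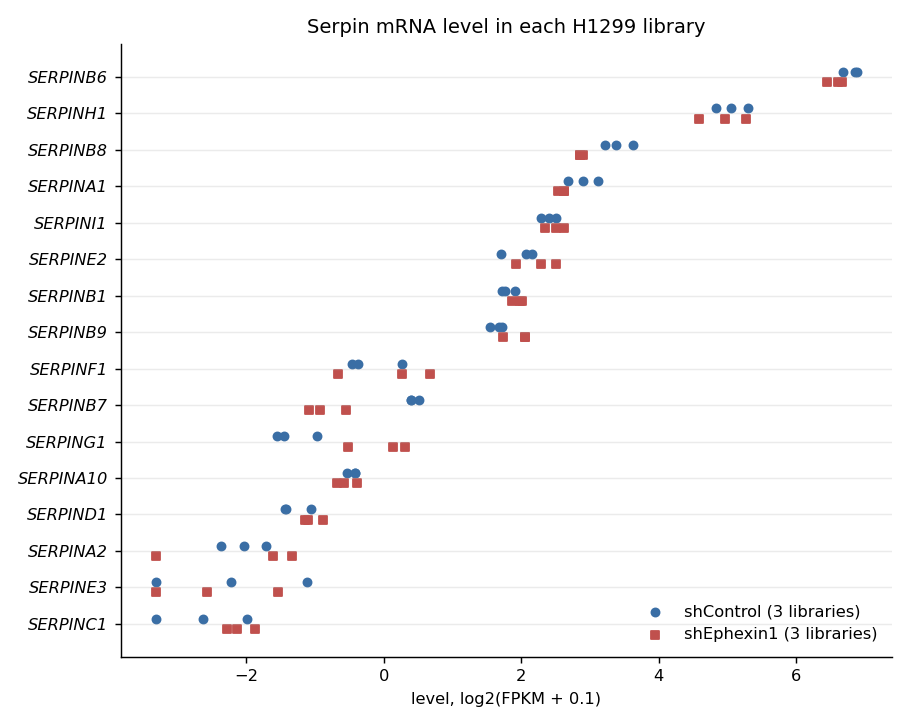
Level of each of the 16 tested serpin genes in each library, on a log2(FPKM + 0.1) axis, with blue circles for the 3 shControl and red squares for the 3 shEphexin1 libraries, ordered by mean level. SERPINB6 and SERPINH1 stand above the others shown, the points of SERPINB7 and SERPING1 separate by group in opposite directions, and SERPINA2, SERPINE3 and SERPINC1 have libraries at 0.

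The serpin differences lay on both sides of 0. With calls made at adjusted p up to 0.025 and 2-fold or more, 1 of the 16 tested serpins was called lower (SERPINB7) and 0 were called higher. Over all 16020 genes tested, 0.999% were called lower and 0.893% were called higher. The fitted log2 fold change was positive for 8 serpins and negative for 8, with a median of 0.019, against -0.0093 for all genes tested. The median size of the log2 fold change, without its sign, was 0.26 for the serpins and 0.24 for all genes. With no adjustment, 3 serpins had p of at most 0.05 in limma (SERPINB7, SERPINB8 and SERPING1), against 23.3% of all genes tested.

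In 6 serpins all libraries of one group lay above all libraries of the other. SERPINB9 and SERPING1 were higher in all 3 shEphexin1 libraries, where 12.8% of all genes tested were. SERPINA1, SERPINB6, SERPINB7 and SERPINB8 were lower in all 3, where 15.4% of all genes were. For 10 of the 15 serpins that were not called, the 95% interval of the difference stayed within 2-fold in both directions. In bulk RNA, fewer cells expressing a gene and less RNA per cell cannot be told apart, which holds for every difference given here.

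**Figure D2:**
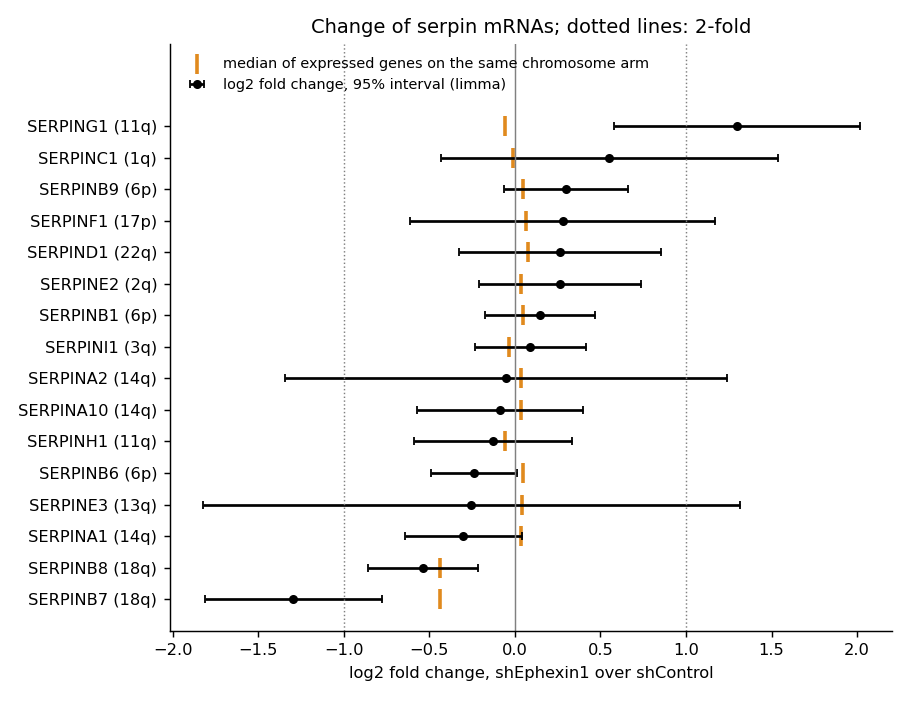
Log2 fold change of the 16 tested serpin genes, shEphexin1 over shControl, with 95% intervals from limma (black) and the median of the expressed genes on the same chromosome arm (orange). SERPING1 at 1.30 and SERPINB7 at -1.30 are the extremes, and the orange mark of 18q at -0.44 lies away from 0 on the side of SERPINB7 and SERPINB8.

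SERPINB7, first described in mesangial cells of the kidney and also expressed in skin, was the serpin called. It measured 1.33, 1.21 and 1.22 FPKM in the shControl libraries against 0.368, 0.580 and 0.426 FPKM in the shEphexin1 libraries. Every shEphexin1 library lay below every shControl library by a wide margin, with replicate 2 the highest of its group. The group means were 1.25 ± 0.0674 and 0.458 ± 0.109 FPKM (SD, n = 3), and SERPINB7 fell by 1.30 on the log2 scale (SE 0.221, 95% interval -1.81 to -0.78, limma adjusted p = 0.0194). Replicates 1 and 3 alone gave -1.47 (limma adjusted p = 0.0147). The call was lost when any single library other than shEphexin1 replicate 2 was left out, with adjusted p between 0.0491 and 0.110 in limma. Without shControl replicate 1 the adjusted p was 0.110, without shControl replicate 2 it was 0.0491 and without shControl replicate 3 it was 0.0710. Without shEphexin1 replicate 1 it was 0.0939 and without shEphexin1 replicate 3 it was 0.0712, all in limma. In these fits the log2 fold change stayed between -1.32 and -1.18. The call was also lost without a filter on low values (limma adjusted p = 0.0582), with a filter of 1 FPKM (0.0267) and with a pseudocount of 1 FPKM, where the log2 fold change was -0.63, under 2-fold.

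SERPINB8, an intracellular inhibitor of the same clade, is encoded in the same clade B cluster of 18q. It measured 10.3, 12.2 and 9.25 FPKM in the shControl libraries against 7.34, 7.15 and 7.13 FPKM in the shEphexin1 libraries. The shEphexin1 libraries were nearly equal to each other and all below the lowest shControl library. The log2 fold change of -0.54 (SE 0.137, 95% interval -0.86 to -0.22) did not pass the threshold (limma adjusted p = 0.0606). In replicates 1 and 3 alone it was -0.42 (limma adjusted p = 0.0473). With a term for each replicate number (the replicate block) it was again -0.54, under 2-fold, with an adjusted p of 0.00791 in limma. SERPINB7 was 0.120 ± 0.0182 times as abundant as SERPINB8 in shControl and 0.0637 ± 0.0159 times in shEphexin1 (SD, n = 3), a ratio chosen after the values were seen (two-sided exact permutation p = 0.1, the smallest that 3 libraries against 3 allow).

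Both genes lie on a chromosome arm with lower levels in shEphexin1. On GRCh37, SERPINB7 spans chr18:61420169-61472610 and SERPINB8 spans chr18:61637263-61687013, both on the plus strand. Of the 116 expressed genes of 18q, those averaging at least 1 FPKM, 101 had a negative log2 fold change, with a median of -0.44. All 6 other expressed genes within 1 Mb of SERPINB7 were negative (median -0.37), and so were all 5 within 1 Mb of SERPINB8 (median -0.25). SERPINB8 shared its span in part with HMSD on the same strand, and their reads may be split between them. With the arm median subtracted, the log2 fold change was -0.86 for SERPINB7 and -0.10 for SERPINB8. SERPINB7 itself averaged below 1 FPKM and is not among the 116, of which 2 were at or below its value. The part of the arm in these differences was not tested beyond this subtraction.

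The 18q cluster holds 10 of the 34 serpin genes, and SERPINB7 and SERPINB8 were the only ones tested. SERPINB2, SERPINB3, SERPINB4, SERPINB10, SERPINB11, SERPINB12 and SERPINB13 were listed at 0 in every library, and SERPINB5 (maspin) at 0.0430 FPKM in 1 library. The sequence before the start of these genes was read from RefSeq promoter windows on GRCh38.p14 (250 bases before each start, both strands searched), which covered 27 of the 34 serpins in 41 windows. The letters TGANTCA, which take in the AP-1 element, occurred in at least 1 window of 6 of the 8 cluster members with a window, in 0 of 3 members of the 6p cluster, in 0 of 9 members of the 14q cluster and in 2 of 7 others. Counted by window, 7 of the 11 windows of the 18q cluster held these letters, against 6.57% of all 35116 windows of that table. The stricter letters TGAGTCA occurred in 4 of the 11 windows, those of SERPINB7, SERPINB8 and SERPINB13, and in 4.20% of all windows. The share of G and C bases in the 11 windows ran from 26.0% to 60.0%, beside a median of 58.0% over all windows. These comparisons did not account for base composition, so they cannot show an enrichment of AP-1 elements. Windows of SERPINB7 and SERPINB8, the expressed members, are shown with SERPINB2, which was listed at 0, because all 3 genes hold the letters while their levels differ. Capitals mark TGANTCA, and the windows are, in the order shown, chr18:63775168-63775417, chr18:63777531-63777780, chr18:63969831-63970080 and chr18:63887455-63887704, all on the plus strand of GRCh38.p14.
SERPINB7, middle start: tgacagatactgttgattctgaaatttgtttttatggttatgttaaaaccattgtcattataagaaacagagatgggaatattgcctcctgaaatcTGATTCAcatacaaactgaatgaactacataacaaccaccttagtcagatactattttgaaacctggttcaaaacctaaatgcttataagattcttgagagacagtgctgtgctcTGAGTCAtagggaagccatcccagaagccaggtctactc
SERPINB7, last start: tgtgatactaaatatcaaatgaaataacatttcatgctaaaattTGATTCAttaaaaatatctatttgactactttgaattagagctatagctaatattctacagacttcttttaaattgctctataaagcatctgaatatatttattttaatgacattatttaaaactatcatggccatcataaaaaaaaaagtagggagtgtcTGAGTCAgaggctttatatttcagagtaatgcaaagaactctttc
SERPINB8: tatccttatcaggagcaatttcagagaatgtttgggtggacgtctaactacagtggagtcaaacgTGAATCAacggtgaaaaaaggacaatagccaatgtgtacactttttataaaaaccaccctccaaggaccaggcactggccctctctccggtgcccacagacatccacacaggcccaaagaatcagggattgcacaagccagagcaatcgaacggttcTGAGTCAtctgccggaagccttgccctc
SERPINB2: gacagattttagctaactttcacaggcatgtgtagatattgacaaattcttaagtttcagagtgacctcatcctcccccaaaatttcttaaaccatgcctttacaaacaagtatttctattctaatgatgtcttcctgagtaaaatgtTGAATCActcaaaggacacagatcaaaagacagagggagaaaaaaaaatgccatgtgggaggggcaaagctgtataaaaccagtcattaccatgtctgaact
The SERPINB7 and SERPINB8 windows shown each hold the letters at 2 places, 1 of them as TGAGTCA. The SERPINB2 window holds them once as TGAATCA. The window of the first SERPINB7 start, which is not shown, lacks the letters, and the start used in these cells is unknown. The match describes letters and neither a bound site nor a cause of the levels, and the motif was chosen with the results known. Other letters searched were TATAAA (10.7% of all windows), CACGTG (6.34%), GGGCGG (42.6%), TTCNNNGAA (6.57%) and CCAAT (32.0%). Within the 18q cluster, TATAAA occurred in windows of SERPINB2, SERPINB7, SERPINB8 and SERPINB12, and TTCNNNGAA in windows of SERPINB7, SERPINB8 and SERPINB12. CCAAT occurred there in windows of SERPINB8 and SERPINB12, GGGCGG in that of SERPINB5 and CACGTG in none. TGANTCA was thus not the only motif found in these windows. In the first window of each gene, the 12 tested serpins had a median of 7.5 CpG dinucleotides and the 15 untested serpins a median of 2.0.

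SERPING1 encodes the C1 inhibitor, which blocks the complement proteases C1r and C1s and the contact-system proteases kallikrein and factor XIIa. It measured 0.242, 0.411 and 0.264 FPKM in the shControl libraries against 0.593, 1.14 and 0.992 FPKM in the shEphexin1 libraries. All shEphexin1 values lay above all shControl values, and replicate 2 was the highest of each group. The mean was 0.306 ± 0.0920 FPKM with the control hairpin and 0.910 ± 0.284 FPKM with the Ephexin1 hairpin (SD, n = 3), a ratio of 2.98. The log2 fold change of 1.30 (SE 0.307, 95% interval 0.58 to 2.02) missed the threshold (limma adjusted p = 0.0497). With adjusted p up to 0.05 and the same fold, SERPING1 was the only serpin called higher and SERPINB7 the only one called lower, where 1.49% and 1.4% of all genes tested were called. In replicates 1 and 3 alone its log2 fold change was again 1.30 (limma adjusted p = 0.0495), and with a pseudocount of 1 FPKM in all libraries it was 0.54. The gene lies at chr11:57364860-57386644 (GRCh37, plus strand) on an arm with a median log2 fold change of -0.059, and 9 of the 13 other expressed genes within 1 Mb were positive. Among its target proteases, C1S measured 0.138, 0.0608 and 0.137 FPKM in the shControl libraries against 0.544, 0.245 and 0.319 FPKM in the shEphexin1 libraries (log2 fold change 1.12, limma adjusted p = 0.106). C1R was under the filter, and F12 had a log2 fold change of 0.62 (limma adjusted p = 0.197). C1S, C1R and F12 were picked for their known link to SERPING1, and other targets are not given. Of 9 tested genes of complement and contact, 0 were called and 3 were higher without overlap, beside 12.8% of all genes tested.

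SERPINB6, an intracellular inhibitor of cathepsin G and related proteases, measured 116.3, 103.0 and 118.7 FPKM in the shControl libraries against 101.6, 87.2 and 97.5 FPKM in the shEphexin1 libraries. Every shEphexin1 value lay below every shControl value, the 2 nearest being 101.6 and 103.0 FPKM. The log2 fold change was -0.24 (SE 0.108, 95% interval -0.49 to 0.013, limma adjusted p = 0.237). It depended on the processing, at -0.11 with quantile normalization (limma adjusted p = 0.518). With the replicate block it was again -0.24, with an adjusted p of 0.00577 in limma.

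SERPINH1 (HSP47), a collagen chaperone of the endoplasmic reticulum that inhibits no protease, measured 33.3, 28.5 and 39.5 FPKM in the shControl libraries against 31.1, 24.0 and 38.4 FPKM in the shEphexin1 libraries. The groups overlapped, with replicate 2 lowest and replicate 3 highest in each. Its log2 fold change was -0.13 (SE 0.197, limma adjusted p = 0.755), and it turned to 0.046 without shEphexin1 replicate 2. Of 13 tested genes for collagens and their folding enzymes, 7 were higher and 2 lower without overlap, beside 12.8% and 15.4% of all genes. In this list 2 genes were called higher, beside 0.893% of all genes tested. These were COL6A1 (0.331 ± 0.0747 against 1.26 ± 0.354 FPKM, SD, n = 3) and COL6A2 (2.30 ± 0.355 against 6.60 ± 2.03 FPKM, SD, n = 3), which encode chains of collagen VI, with log2 fold changes of 1.64 and 1.44 (limma adjusted p = 0.0194 and 0.0209). Both calls were lost when any single library other than shEphexin1 replicate 2 was left out. P4HB and FKBP10, the most abundant genes of this list, had log2 fold changes of -0.20 and 0.34 (limma adjusted p = 0.578 and 0.355).

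SERPINA1 encodes α1-antitrypsin, the main inhibitor of neutrophil elastase in plasma. It measured 7.32, 6.32 and 8.56 FPKM in the shControl libraries against 6.05, 5.69 and 6.08 FPKM in the shEphexin1 libraries, without overlap, and its log2 fold change was -0.30 (SE 0.146, limma adjusted p = 0.269). Of its neighbours on 14q, SERPINA10, which inhibits factor Xa with protein Z, was at 0.525 to 0.661 FPKM over the 6 libraries (log2 fold change -0.087, limma adjusted p = 0.854). SERPINA2, a close relative of SERPINA1 whose reads the counting could split between them, measured 0.143, 0.0927 and 0.206 FPKM in the shControl libraries against 0, 0.295 and 0.226 FPKM in the shEphexin1 libraries. Its direction depended on single libraries (log2 fold change -0.052, limma adjusted p = 0.971). SERPINA3, SERPINA4, SERPINA5, SERPINA7, SERPINA9 and SERPINA11 were listed at 0 throughout. SERPINA6, which carries corticosteroids in blood, and SERPINA12 (vaspin) were each above 0 in 1 library, at 0.0647 and 0.0443 FPKM.

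The 6p cluster of intracellular inhibitors also holds SERPINB1, which inhibits neutrophil elastase, and SERPINB9, which inhibits granzyme B. SERPINB9 measured 3.08, 3.20 and 2.82 FPKM in the shControl libraries against 4.05, 4.03 and 3.23 FPKM in the shEphexin1 libraries, where replicate 3 was only just above the highest shControl library. Its log2 fold change was 0.30 (SE 0.154, limma adjusted p = 0.300). SERPINB1 had means of 3.39 ± 0.244 and 3.76 ± 0.207 FPKM (SD, n = 3) and overlapped (log2 fold change 0.15, limma adjusted p = 0.580). Their targets in immune cells, GZMB and CTSG, were listed at 0 in every library. The arm median of 6p was 0.044.

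The remaining tested serpins overlapped between the groups. SERPINE2, an inhibitor of thrombin and urokinase, had means of 3.88 ± 0.639 and 4.70 ± 0.953 FPKM (SD, n = 3, log2 fold change 0.26, limma adjusted p = 0.497), and replicate 2 was the lowest library of shControl and the highest of shEphexin1. In replicates 1 and 3 alone its log2 fold change was -0.0087. SERPINI1 (neuroserpin), an inhibitor of tissue plasminogen activator (PLAT) known from neurons, measured 4.79, 5.57 and 5.20 FPKM in the shControl libraries against 5.61, 6.04 and 4.96 FPKM in the shEphexin1 libraries. Replicate 2 was the highest of each group, and the groups overlapped. SERPINI1 had means of 5.19 ± 0.393 and 5.53 ± 0.541 FPKM (SD, n = 3, log2 fold change 0.09, limma adjusted p = 0.756). SERPINF1 (PEDF), an anti-angiogenic serpin without inhibitory function, ranged from 0.528 to 1.496 FPKM in shEphexin1, a wider range than the 0.625 to 1.11 FPKM of shControl (log2 fold change 0.28, limma adjusted p = 0.722). SERPIND1 (heparin cofactor II), a thrombin inhibitor, ranged from 0.270 to 0.379 FPKM in shControl and from 0.353 to 0.444 FPKM in shEphexin1 (log2 fold change 0.26, limma adjusted p = 0.591). It lies within PI4KA, which is on the other strand, and the strand setting of the counting is not given in the sources used here.

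Urokinase (PLAU), a protease that SERPINE2 can inhibit, activates plasminogen at the cell surface while bound to its receptor PLAUR. PLAU measured 218.6, 182.5 and 233.8 FPKM in the shControl libraries against 386.7, 306.9 and 395.4 FPKM in the shEphexin1 libraries, and its log2 fold change of 0.78 (SE 0.143) reached an adjusted p of 0.0243 in limma at less than 2-fold. PLAUR measured 222.1, 177.7 and 252.8 FPKM in the shControl libraries against 378.8, 303.8 and 429.4 FPKM in the shEphexin1 libraries (log2 fold change 0.77, SE 0.174, limma adjusted p = 0.0429). Neither gene overlapped between the groups, and PLAT did (log2 fold change 0.11, limma adjusted p = 0.770). Of the 5 tested genes of plasminogen activation, 3 were higher without overlap, beside 12.8% of all genes tested. PLG, the plasminogen that urokinase cleaves, was listed at 0 in every library.

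SERPINC1 and SERPINE3 were at the edge of the filter. SERPINC1 (antithrombin) measured 0.152, 0 and 0.0613 FPKM in the shControl libraries against 0.105, 0.173 and 0.128 FPKM in the shEphexin1 libraries (log2 fold change 0.55, limma adjusted p = 0.495). SERPINE3, which overlaps INTS6 on the other strand, measured 0.359, 0.114 and 0 FPKM in the shControl libraries against 0.0677, 0 and 0.245 FPKM in the shEphexin1 libraries (log2 fold change -0.26, limma adjusted p = 0.869). Both 95% intervals reached beyond 2-fold, so they do not exclude a difference of that size. SERPINF2, the plasmin inhibitor α2-antiplasmin, was at 0.114 FPKM and SERPINI2 at 0.0533 FPKM in 1 shEphexin1 library each and at 0 elsewhere.

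Genes that act with the serpins were read from the same fit in 7 lists, of which the plasminogen and collagen lists are given in part above. Of 132 genes listed, 60 were tested, 3 were called higher and 1 lower, with a median log2 fold change of 0.36, and 26 were higher and 4 lower without overlap. Over all genes tested, 0.893% were called higher and 0.999% lower, and 12.8% were higher and 15.4% lower without overlap. The lists were chosen with earlier results of these data known, so this comparison cannot show that genes acting with serpins rose as a group. None of the 4 calls held when any single library other than shEphexin1 replicate 2 was left out. Without shEphexin1 replicate 2, COL6A1, COL6A2 and SPINT2 were called, and F2RL2 and CTSV were not (limma adjusted p = 0.0386 and 0.0270). In the coagulation list 1 of 10 tested genes was called higher, F2RL2, a thrombin receptor of the protease-activated family, at 0.466 ± 0.0792 against 1.20 ± 0.104 FPKM (SD, n = 3, log2 fold change 1.20, limma adjusted p = 0.0210). The receptors F2R and F2RL1 had log2 fold changes of 0.43 and 0.38 (limma adjusted p = 0.0629 and 0.0497). In the list of proteases that intracellular serpins can inhibit, 1 of 10 was called lower, the lysosomal protease CTSV, at 1.80 ± 0.374 against 0.700 ± 0.114 FPKM (SD, n = 3, log2 fold change -1.24, limma adjusted p = 0.0233). CTSB and CTSL, the most abundant of that list, had log2 fold changes of 0.51 and 0.46 (limma adjusted p = 0.0600 and 0.0646).

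No gene was called in the other lists, which comprised 5 tested genes of plasminogen activation (median log2 fold change 0.55), 9 of complement and contact (0.33), 6 membrane and secreted serine proteases (0.13) and 7 protease inhibitors of other families (0.38). CD59, a membrane inhibitor of complement, had 87.6 ± 2.39 and 127 ± 4.82 FPKM (SD, n = 3) and an adjusted p of 0.0181 in limma at less than 2-fold, and CD46 had a log2 fold change of 0.23 (limma adjusted p = 0.556). PRSS23 and HTRA1, the most abundant secreted proteases, had log2 fold changes of -0.016 and -0.13, and the inhibitors CST3 and PEBP1 of 0.38 and -0.079 (limma adjusted p = 0.958, 0.584, 0.355 and 0.760). Among the other inhibitors, SPINT2, a Kunitz-type inhibitor of membrane serine proteases chosen here after its values were seen, measured 5.39, 3.56 and 6.09 FPKM in the shControl libraries against 11.8, 8.85 and 13.98 FPKM in the shEphexin1 libraries. Its log2 fold change was 1.20 (SE 0.245, limma adjusted p = 0.0339), and it was called without shEphexin1 replicate 2 (1.37, limma adjusted p = 0.0236) and in replicates 1 and 3 alone (1.15, limma adjusted p = 0.00519). The collagen list had the highest median of the 7, at 0.64, beside the -0.0093 of all genes tested. Medians of lists this short can rest on single genes, and their distance from the median of all genes was not tested.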

How the data were processed

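The serpin genes and the gene lists were chosen with earlier results of these data known, and 1 of the 35 genes that match the serpin symbol rule is not reported here. Total RNA was extracted with TRIzol, treated with DNase I, and turned into strand-specific TruSeq libraries for NovaSeq sequencing. The authors mapped reads to GRCh37 with TopHat 2.0.13 and deposited FPKM per gene and library, made with Cuffdiff 2.2.1 under geometric normalization. The annotation is not given in the sources used here. FPKM hold no read counts, so depth is unknown.

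Genes reaching 0.1 FPKM in 3 or more of the 6 libraries were tested on log2(FPKM + 0.1), a scale that understates the change of low genes. The test was limma 3.58.1 (eBayes with trend, R 4.3.3), with Benjamini-Hochberg adjustment over 16020 genes, and its steps were tested on simulated data. Calls required adjusted p up to 0.025 and a 2-fold difference or more. Exact permutation tests were two-sided. Every other tested serpin was named, and from each partner list the called genes and the 2 with the highest mean. PLAT, PLG, C1S, C1R, F12, GZMB and CTSG were named beyond this rule, for their known link to a serpin, and SPINT2 after its values were seen. Positions come from GENCODE release 44 on GRCh37. Promoter windows come from RefSeq on GRCh38.p14 and were used only for sequence. The alternatives were other pseudocounts, filters, scalings, thresholds and replicate terms, each library left out, and the subtraction of arm medians.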

Additional observations from a re-analysis of the deposited data

How the results depend on the processing

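The replicate numbers of the 2 groups did not pair the libraries by the criterion used, a correlation over 0.1 of the same-numbered deviations from the group means in every pair, since these were 0.0914, 0.430 and 0.328, although each library correlated best with its own number. The number of serpins called higher, 0 as reported, was 1 (SERPING1) with the replicate block, with a term for replicate 2 and at an adjusted p of at most 0.05. With the replicate block 556 genes were called in place of 303. The number called lower, 1 as reported, was 0 with a pseudocount of 1 FPKM, without a filter and with a filter of 1 FPKM, and 0 to 1 with each library left out. Of the partner genes, 4 were called as reported, 1 with a pseudocount of 1 FPKM, 2 with 0.01 FPKM, 0 without a filter, 1 with a filter of 1 FPKM and 0 to 3 with each library left out. It was 5 with quantile normalization, with the replicate block, with a term for replicate 2, in replicates 1 and 3 alone and at an adjusted p of at most 0.05, 6 with no fold threshold, 4 with median centring and 3 without the trend. SPINT2 was called with the replicate block (limma adjusted p = 0.000320). Fewer genes were called overall with a pseudocount of 1 FPKM (139), and more with replicates 1 and 3 alone (430). The sign of the log2 fold change turned for SERPINA2 with a pseudocount of 1 FPKM (0.025) and for SERPINE2 and SERPINE3 in replicates 1 and 3 alone (-0.0087 and 0.17). With each library left out it ran from -0.43 to 0.56 for SERPINA2, from -0.80 to 0.29 for SERPINE3, from -0.014 to 0.66 for SERPINF1 and from -0.29 to 0.046 for SERPINH1. The cause was not tested. Arm medians were subtracted from folds only, so no count of calls exists for them. NGEF stayed negative under all 17 alternatives and uncalled under the 16 with a test. Its adjusted p in limma was 0.00284 with the replicate block and 0.00572 with a term for replicate 2. In both fits its log2 fold change of -0.53 was under 2-fold, which is why it was not called there. Depth cannot be judged from FPKM.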
